A study of Homo sapiens with 2 samples.

Results

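The tetraspanin genes were examined in HT29, an established line of human colon adenocarcinoma cells, after silencing of GATA6, a transcription factor with zinc fingers that acts in gut epithelium. Tetraspanins are multi-span membrane proteins with a large extracellular loop held together by disulfide bonds. They bind integrins, immunoglobulin-type receptors, metalloproteases and each other, and in this way sort surface proteins into microdomains and into endosomes and exosomes. In intestinal epithelium and its tumors they are known mainly for adhesion, motility and vesicle release.

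Members were chosen by gene symbol, namely all TSPAN genes, CD9, CD37, CD53, CD63, CD81, CD82, CD151, the uroplakins UPK1A and UPK1B, and the photoreceptor genes PRPH2 and ROM1. The human annotation holds 33 such genes, and 32 had a named value on the array, out of 13754 named genes other than small RNAs. PRPH2, which shapes photoreceptor discs, was not analysed here. TSPAN3 was measured by 2 probe sets and each of the other 31 genes by 1.

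The series holds 1 array of HT29 cells transfected with an siRNA targeting GATA6 and 1 array of HT29 cells transfected with a control siRNA. An siRNA lowers its target transiently and does not delete it, and which of the study's duplexes against GATA6 reached the array could not be taken from the sources. The label of the control array adds that it was reanalyzed, without saying how. With 1 array per group no difference below has a replicate check, and no p-value can be given.

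The deposited values are on a log2 scale (the base is an assumption, since it is not stated) and have been centered on the median of both arrays. The value of one array therefore mirrors that of the other, and no expression level is kept. Whether a tetraspanin was expressed in HT29 cells at all, and which tetraspanin was the most abundant, cannot be read from such values. Differences are GATA6 siRNA minus control siRNA. The words lower and higher are kept for differences of over 1.4-fold (a log2 difference of 0.49), the size that the study's methods use for decreases. As a yardstick of error, the SD between the 2 probe sets of a gene was 0.19 on the log2 scale (470 genes with 2 probe sets). It holds disagreement between probe sets within these arrays and not the spread between cultures.

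The siRNA target was examined first. GATA6 had a value of -0.58 in the GATA6 siRNA array and 0.58 in the control siRNA array, a difference of -1.15 (2.22-fold lower, 45.0% of the control value). The cell type in the label could not be checked against marker levels, because levels were removed. Of the 7 named markers of colon epithelium all were above 0. KRT20 (1.89), KRT19 (0.54) and EPCAM (0.49) were higher by over 1.4-fold, as were 3.56% of all genes. EPCAM fell short with quantile normalization of the centered values (0.46). KRT18 (0.36) and KRT8 (0.20) lay below that size, and CDX2 and VIL1 were at 0.02. The named markers of leukocytes, endothelium, fibroblasts and urothelium lay between -0.08 and 0.12. The ends of this range are CD53 and CD37, which are tetraspanins themselves. The part of the epithelial genes in the tetraspanin differences was not tested. Fewer cells of a type and less RNA per cell cannot be told apart in such bulk RNA.

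Only 2 of the 32 tetraspanins differed by over 1.4-fold, and they differed in opposite directions. TSPAN8 was lower and TSPAN13 was higher in the GATA6 siRNA array. This makes 6.25% of the members, compared with 6.17% of all 13754 genes and 6.77% of the 11910 protein-coding genes, so the share is at the background. In single directions, 1 member was lower where the background was 2.61%, and 1 was higher where it was 3.56%. The median of the family was near that of all genes. Of its members 11 lay below 0, 19 above 0 and 2 exactly at 0, with a median of 0.02 against a median of 0 over all genes. Over all genes 6673 lay below 0, 6638 above 0 and 443 exactly at 0. Outside the 2 genes past 1.4-fold, the members lay between -0.32 and 0.45.

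**Figure D1:**
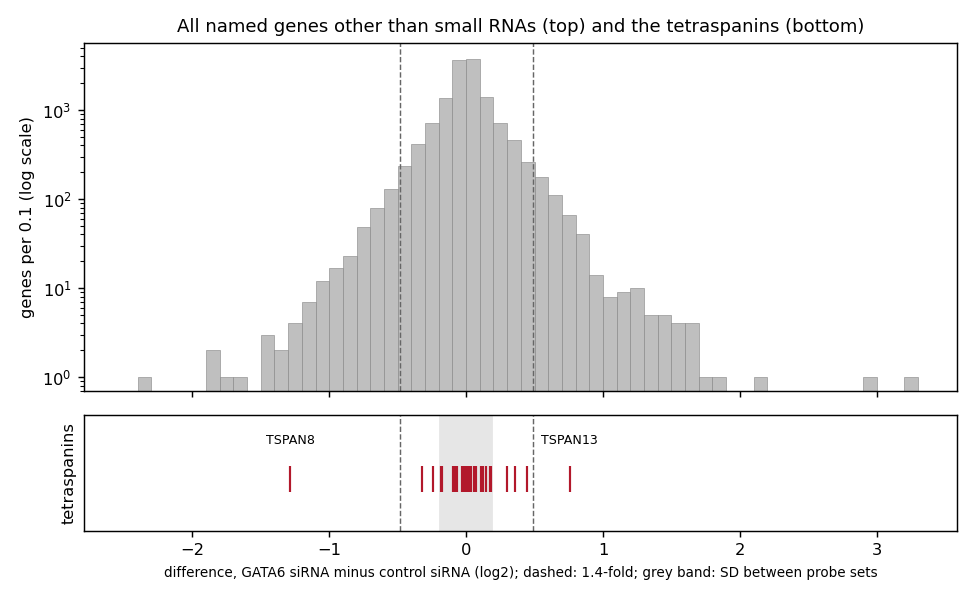
Histogram of the log2 difference, GATA6 siRNA minus control siRNA, for all 13754 named genes other than small RNAs (top, number of genes on a log axis) and a tick for each of the 32 tetraspanins (bottom), with dashed lines at 1.4-fold and a grey band of 0.19, the SD between probe sets of 1 gene. Of the members 25 lie inside the band, and TSPAN8 at -1.29 and TSPAN13 at 0.76 lie outside the dashed lines.

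The regions before the starts of TSPAN8 and TSPAN13 are shown because these are the members past 1.4-fold and the silenced factor binds DNA. They are the 250 bases before each start that RefSeq annotates (GRCh38.p14), written in the direction of transcription, with every GATA on either strand (GATA or TATC as read here) in capitals. TSPAN8 has 2 annotated starts on the minus strand, whose windows overlap, at chr12:71158000-71158249 (start 1) and chr12:71157810-71158059 (start 2). TSPAN13 has 1 on the plus strand, at chr7:16753505-16753754.
TSPAN8 start 1: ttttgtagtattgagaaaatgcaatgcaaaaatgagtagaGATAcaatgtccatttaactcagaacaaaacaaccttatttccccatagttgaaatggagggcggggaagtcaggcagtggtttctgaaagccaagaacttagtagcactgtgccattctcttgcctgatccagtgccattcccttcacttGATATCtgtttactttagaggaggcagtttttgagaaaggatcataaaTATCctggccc
TSPAN8 start 2: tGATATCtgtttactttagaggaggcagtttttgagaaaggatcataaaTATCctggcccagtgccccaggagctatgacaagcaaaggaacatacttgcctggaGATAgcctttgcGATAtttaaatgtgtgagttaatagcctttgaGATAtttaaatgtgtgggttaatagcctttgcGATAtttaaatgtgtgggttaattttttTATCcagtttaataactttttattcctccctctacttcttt
TSPAN13 start 1: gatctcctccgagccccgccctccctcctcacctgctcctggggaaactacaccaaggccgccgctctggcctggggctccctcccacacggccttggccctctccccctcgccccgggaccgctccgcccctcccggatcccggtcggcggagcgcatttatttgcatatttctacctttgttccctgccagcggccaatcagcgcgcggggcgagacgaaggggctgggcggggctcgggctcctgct

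The windows of the 2 genes are unlike in composition. The window of TSPAN8 start 2 has a GC content of 36.0% and 2 CG dinucleotides, and that of TSPAN13 has a GC content of 70.0% and 22 CG dinucleotides. The core GATA was found 8 times before TSPAN8 start 2, 4 times before TSPAN8 start 1 and 0 times before TSPAN13. The matches before TSPAN8 start 1, other than that at -210, lie in the shared bases and are counted before start 2 as well. GATATC reads as a match on both strands and counts as 2. Part of the matches before TSPAN8 start 2 belong to a repeat, in which the 16 bases gatatttaaatgtgtg occur 3 times, beginning 133, 101 and 69 bases before the start. Of all 35116 RefSeq windows of the same length, 45.6% hold at least 1 core, whereas 12 windows (0.0342%), that of TSPAN8 included, hold at least 8. Among the 4692 windows with a GC content of at most 40%, 5 hold at least 8 (0.107%). The cut of 8 was taken from TSPAN8 start 2 itself, the member window with the most matches, so these shares test nothing.

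The longer motif of GATA factors was searched as the core GATA with A or T directly before it and A or G directly after it, on both strands, so that each longer match contains a core match. Promoter windows were matched for 24 of the 32 tetraspanins (44 windows). The longer motif was present in 7 of these windows (15.9%), compared with 22.3% of all windows, and the core in 21 (47.7%). Of the 8 core matches before TSPAN8 start 2, only 1 is a longer match, whereas the single window of TSPAN12 holds 2 longer matches. The longer motif lay before a start of TSPAN8, TSPAN12, TSPAN16, CD63, CD9 and TSPAN6. These 6 genes had differences from -1.29 to 0.45 with a median of 0.09, and the other 18 genes had a median of 0.03. Apart from TSPAN8, the genes with the longer motif lay at -0.01 for TSPAN12, 0 for TSPAN16, 0.18 for CD63, 0.35 for CD9 and 0.45 for TSPAN6. A match in such a window is a description of the sequence, and binding was not measured.

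**Figure D2:**
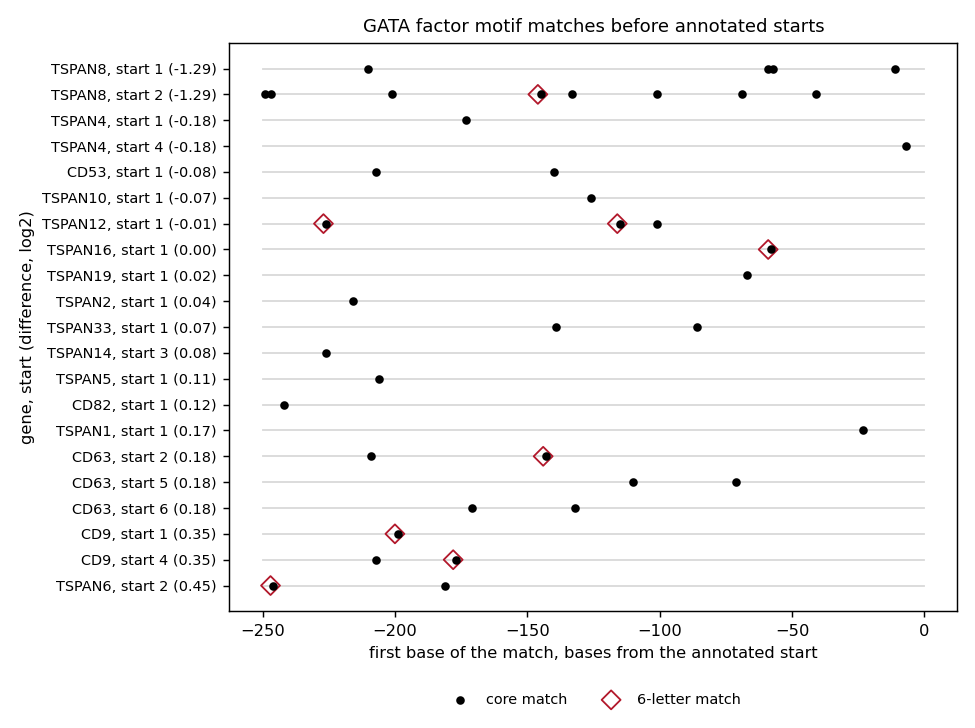
First base of each core match (black points) and each longer match (red diamonds), in bases from the annotated start, for the 21 tetraspanin windows with a match, with the log2 difference of the gene (GATA6 siRNA minus control siRNA) in brackets and genes sorted by it. TSPAN8 start 2 holds 8 core matches, and no other member window holds more than 4.

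TSPAN8 and TSPAN1 are the tetraspanins best known from gut epithelium and carcinomas. TSPAN8 (also CO-029) is a surface antigen of colon cancer that promotes motility and exosome release. Its single probe set, 16767513, had a value of -0.64 in the GATA6 siRNA array and 0.64 in the control siRNA array. The difference of -1.29 (2.44-fold lower, 41.0% of the control value) was 6.69 times the SD between probe sets. Of the 13754 genes 10 had a lower value. TSPAN1, an epithelial tetraspanin of secretory and carcinoma cells, had values of 0.09 in the GATA6 siRNA array and -0.09 in the control siRNA array. Its difference of 0.17 lay within the SD between probe sets, and had the opposite sign to that of TSPAN8.

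TSPAN13 (NET-6) is a small tetraspanin whose expression is altered in carcinomas. Its probe set, 17043843, had a value of 0.38 in the GATA6 siRNA array and -0.38 in the control siRNA array. The difference of 0.76 (1.69-fold higher) was 3.94 times the SD between probe sets, and 127 of the 13754 genes had a higher value. TSPAN31 (SAS), the closest paralog of TSPAN13, differed by 0.01. The remaining less studied members were also near 0, with 0.06 for TSPAN11, 0.02 for TSPAN19 and 0 in both arrays for TSPAN16.

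**Figure D3:**
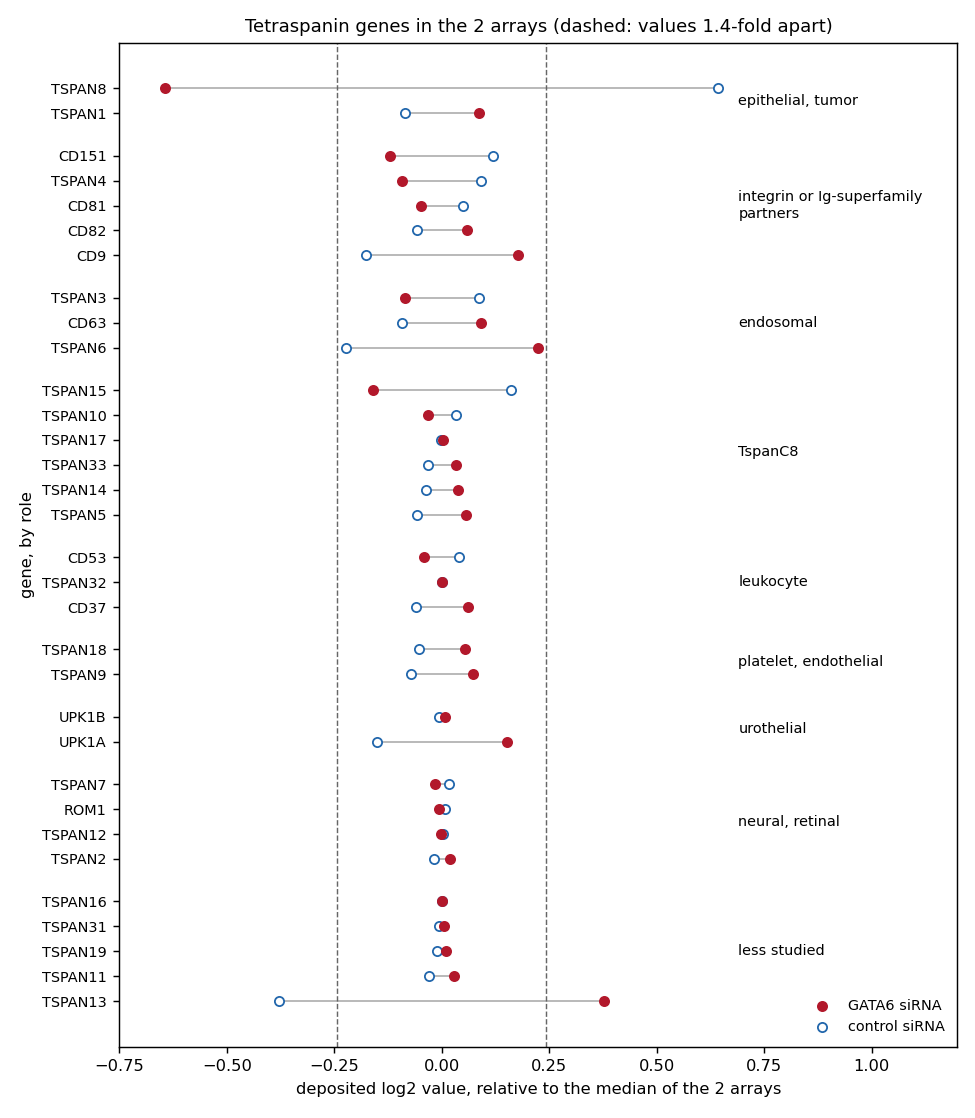
Deposited log2 value of each of the 32 tetraspanins in the GATA6 siRNA array (filled) and in the control siRNA array (open), centered on the median of both arrays and grouped by role, with dashed lines at values 1.4-fold apart. Only the points of TSPAN8 and TSPAN13 lie beyond the lines, on opposite sides, and the 2 points of TSPAN16 and TSPAN32 coincide at 0.

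The tetraspanins that organize integrins and immunoglobulin-type receptors at the surface differed in both directions. None differed by over 1.4-fold, compared with 6.17% of all genes, and nothing is read from so few. CD9, which is needed on the egg for fusion with sperm and binds the immunoglobulin-type proteins PTGFRN and IGSF8, had values of 0.18 in the GATA6 siRNA array and -0.18 in the control siRNA array (difference 0.35, 1.28-fold). CD151, which binds laminin-binding integrins tightly, had values of -0.12 in the GATA6 siRNA array and 0.12 in the control siRNA array (difference -0.24, 1.18-fold). As deposited, both exceeded the SD between probe sets and had opposite signs. CD82, a suppressor of metastasis, differed by 0.12, TSPAN4, a component of migrasomes, by -0.18 and CD81, a partner of the B cell coreceptor and an entry factor of hepatitis C virus, by -0.10. The median of the 5 genes was -0.10.

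Endosomal members were led by TSPAN6, a regulator of exosome formation. It had values of 0.22 in the GATA6 siRNA array and -0.22 in the control siRNA array, and its difference of 0.45 (1.36-fold) was the nearest to 1.4-fold among the members that did not pass. When the median of 43 ribosomal protein genes was taken as 0 (ribosomal protein centering), it was 0.58 and passed. CD63, the classic marker of late endosomes and exosomes, differed by 0.18, within the SD between probe sets. TSPAN3 gave -0.06 with 1 probe set and -0.29 with the other, a mean of -0.17, and was the only member for which 2 probe sets could be compared. They had the same sign and differed from each other by more than the mean of the gene differed from 0.

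The TspanC8 group consists of the 6 tetraspanins that escort the metalloprotease ADAM10 out of the endoplasmic reticulum and steer its choice of substrates. Of these, 0 passed 1.4-fold, compared with 6.17% of all genes, and nothing is read from so few. The median was 0.04. TSPAN15, which directs ADAM10 toward N-cadherin, was the farthest, with values of -0.16 in the GATA6 siRNA array and 0.16 in the control siRNA array (difference -0.32, 1.25-fold). The others lay between -0.07 for TSPAN10, a gene of the pigmented eye tissues, and 0.11 for TSPAN5. TSPAN14 (0.08) and TSPAN33 (0.07), which regulate ADAM10 in endothelium and blood cells, and TSPAN17 (0.01) lay between them. ADAM10 itself differed by 0.0018.

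Members known mainly from other tissues differed little. Among the leukocyte genes, CD37 differed by 0.12 and CD53 by -0.08, and TSPAN32 was 0 in both arrays. TSPAN9 and TSPAN18, of platelets and endothelium, differed by 0.14 and 0.11. Among the neural and retinal genes, TSPAN2 of oligodendrocytes (0.04), TSPAN7 of neurons (-0.03), TSPAN12 of retinal vessels (-0.01) and ROM1 of photoreceptors (-0.01) were all within 0.04 of 0. The exception was UPK1A, a uroplakin of the urothelial plaque, with values of 0.15 in the GATA6 siRNA array and -0.15 in the control siRNA array (difference 0.30, 1.23-fold). The other tetraspanin uroplakin, UPK1B, differed by 0.02. TSPAN16 and TSPAN32 belong to the 1865 probe sets (4.18%) that are exactly 0 in both arrays, and the sources used here do not say what such a value stands for.

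As deposited, 7 of the 32 members exceeded the SD between probe sets. TSPAN8, TSPAN15 and CD151 did so on the lower side, and TSPAN13, TSPAN6, CD9 and UPK1A on the higher side. The remaining 25 (78.1%) lay within it, compared with 72.7% of all genes. Both the signs of small differences and this count depend on the scaling. Ribosomal protein centering adds 0.13 to every difference, after which 5 members (TSPAN8, TSPAN15, CD151, TSPAN4 and TSPAN3) lie below 0 and 27 above, with a median of 0.15 beside 0.13 over all genes. On that scale 14 members exceed the SD, 1 (TSPAN8) on the lower and 13 on the higher side, while TSPAN15 (-0.19) lies just within it and CD151 (-0.11) within it. All genes move up by the same constant, and 186 of 13754 are then lower and 880 higher by over 1.4-fold. How many of all genes exceed the SD on that scale was not computed.

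Close relatives and chromosomal neighbors were set side by side, as pairs picked after the values were known. TSPAN13 and TSPAN31 were 0.75 apart, TSPAN6 and its paralog TSPAN7 0.48, TSPAN4 and TSPAN9 0.33, CD151 and TSPAN11 0.30, and UPK1A and UPK1B 0.29, whereas TSPAN5 and TSPAN17 were 0.11 apart. By the annotation (GRCh38.p14, used only for order), chromosomes 11 and 12 carry 7 members each. On chromosome 11, CD82 and TSPAN18 are adjacent protein-coding genes with differences of 0.12 and 0.11, CD151 and TSPAN4 are separated by 1 protein-coding gene with -0.24 and -0.18, and TSPAN32 and CD81 are adjacent with 0 and -0.10. TSPAN8, on chromosome 12, has 37 protein-coding genes between it and TSPAN19 (0.02) and 61 between it and TSPAN31 (0.01).

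Genes whose proteins are known partners of tetraspanins were examined as lists. Of 81 such genes 50 had a named value, with a median of 0.05. As deposited, 3 were lower and 2 higher by over 1.4-fold (10% of the named ones, against the background of 6.17%). Under ribosomal protein centering the 3 lower ones, CD44, IFITM3 and ANXA2, no longer passed, whereas MMP14 (0.56) and UPK3B (0.54) did. On that scale 7.75% of all genes passed, and no excess is read from the 10%. The list of integrins had 0 of 10 genes named, so the main partners of CD151 were not analysed here.

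The partners of TSPAN8 in colon carcinoma cells are EPCAM, claudin-7 and CD44. CD44, a hyaluronan receptor, had a value of -0.31 in the GATA6 siRNA array and 0.31 in the control siRNA array (difference -0.61, 1.53-fold lower). CLDN7, the tight junction protein that recruits EPCAM to tetraspanins, differed by -0.38 (1.30-fold). EPCAM, the epithelial adhesion molecule, had a value of 0.25 in the GATA6 siRNA array and -0.25 in the control siRNA array (difference 0.49, 1.41-fold higher). Under ribosomal protein centering, CD44 at -0.48 fell just short of 1.4-fold, and with quantile normalization of the centered values EPCAM did at 0.46. The measured partners of TSPAN8 therefore lay on both sides of 0, and CDH1, CTNND1 and CTNNB1 of the same list were not analysed here.

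**Figure D4:**
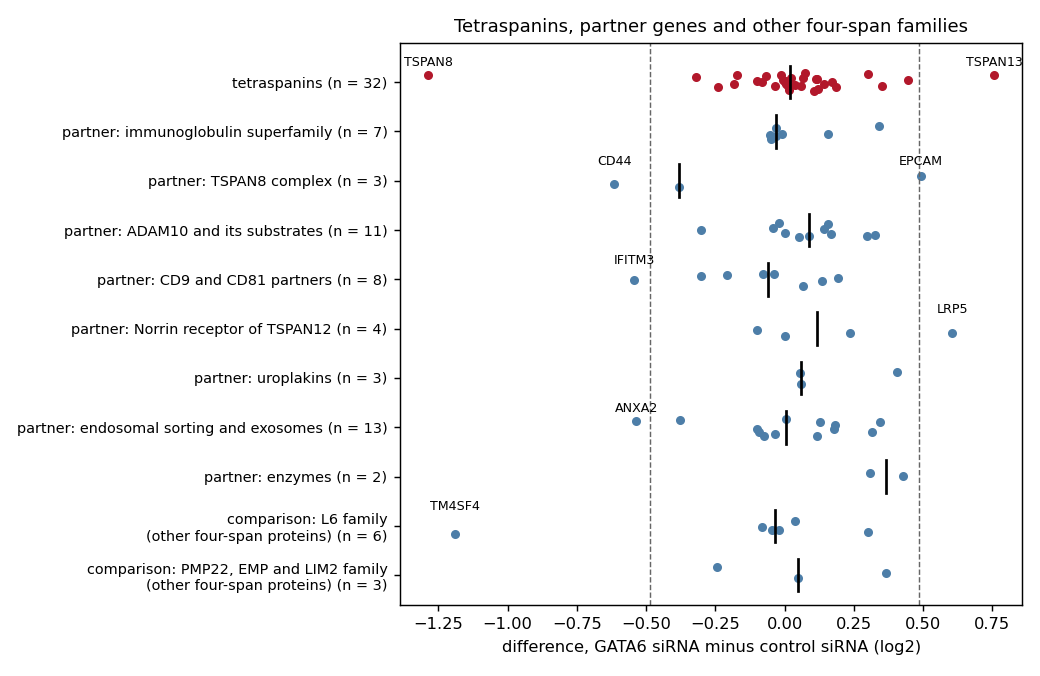
Log2 difference, GATA6 siRNA minus control siRNA, of the tetraspanins (red), of partner genes by list and of other families with the same membrane topology (blue), with black bars at the list medians, dashed lines at 1.4-fold and names for the genes past them. Points are spread vertically for legibility. CD44 at -0.61 and EPCAM at 0.49 lie on opposite sides within the list of TSPAN8 partners.

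Among 8 named partners of CD9 and CD81, IFITM3, an interferon-induced restriction factor of viral entry, was 1.46-fold lower (difference -0.54, or -0.41 and no longer past 1.4-fold under ribosomal protein centering). HBEGF, the growth factor precursor that binds CD9, differed by -0.30, IFITM2 by -0.21 and CLDN1, the claudin that serves with CD81 in viral entry, by 0.19. The median of the list was -0.06. Immunoglobulin-type partners held ICAM1 (0.34), PTGFRN (0.16), CADM1 (-0.05) and CD4 (-0.05) as their farthest members. Of these partners 0 of 7 passed 1.4-fold, compared with 6.17% of all genes.

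Of the 11 named genes around ADAM10, 0 passed 1.4-fold, compared with 6.17% of all genes. Of the same 11 genes 8 lay above 0, compared with 6638 of all 13754 genes. The Notch receptor NOTCH2 differed by 0.33, HBEGF by -0.30, the related protease ADAM17 by 0.30 and the ligand EGF by 0.17, with a list median of 0.09. Among the Norrin receptor genes that work with TSPAN12, the coreceptor LRP5 was 1.52-fold higher (difference 0.60), FZD4 differed by 0.24, LRP6 by -0.10 and NDP, the Norrin gene, by 0. The uroplakins that pair with UPK1A and UPK1B lay above 0, with UPK3B at 0.41 (0.54 under ribosomal protein centering), UPK3A at 0.06 and UPK2 at 0.06.

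Genes of endosomal sorting and exosomes had a median of 0.01 over 13 named members. ANXA2, an annexin of membranes and vesicles, was 1.45-fold lower (difference -0.53, or -0.40 and not past 1.4-fold under ribosomal protein centering). The lysosomal membrane proteins differed in opposite directions, with -0.38 for LAMP1 and 0.34 for LAMP2, and the ESCRT ATPase VPS4B differed by 0.31. Of the enzymes that bind tetraspanins, the membrane protease MMP14 differed by 0.43 (0.56 under ribosomal protein centering) and the lipid kinase PI4K2A by 0.31.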

How the data were processed

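Total RNA of HT29 cells was extracted with TRIsure per the labels, and per the study's methods it was hybridized to 1-color arrays (Affymetrix Human Gene 2.0 ST) and the signals were processed in GeneSpring 12.6.1. The authors deposited log2 values of 44629 probe sets, centered on the median of the 2 arrays (rows sum to 0 within 1e-06, and each column's median is 0). For summarization, normalization and log base nothing was given in the sources used here, and base 2 was assumed. Depth has no counterpart, and the number of arrays limits the precision.

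Symbols came from the array's annotation (15835 probe sets with 1 symbol, 0 with several, 28794 with none), gene classes and order from RefSeq. A gene's value was the mean over its probe sets, computed with pandas 2.3.3 in Python 3.11.15. The mean was checked on a small made-up table, and the calls on shuffled differences with known shifts added. Those shifts were larger than any difference reported here, so calls near 1.4-fold were not checked. Groups were taken from the treatment in the labels. Every tetraspanin is named, and of each partner list all members past 1.4-fold and up to 4 of the farthest. ADAM10, the epithelial markers and UPK1A-AS1 were named outside this rule, with their values known. The members and lists were chosen with earlier results of these data known. The alternatives were all run on the deposited centered values. They were quantile normalization, centering on ribosomal proteins or on all genes, and other ways to combine probe sets. Further ones were genes with 1 probe set, removal of values at 0 and a 2-fold size.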

Additional observations from a re-analysis of the deposited data

How the results depend on the processing

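No paired analysis was possible because there was 1 array in each group, and for the same reason no replicate could be left out. How far signals lay above background cannot be seen in centered values. Of the 7 alternatives only 2, quantile normalization and ribosomal protein centering, could move the values of most members, because the median of all genes is 0 as deposited and 31 members have 1 probe set. The others show nothing about stability. Quantile normalization and ribosomal protein centering were applied to the centered values, and normalization of the array signals was not tried. Neither could change the order of genes with 1 probe set, apart from ties. They show only how values move against a fixed size such as 1.4-fold. TSPAN8 differed by -1.40 with quantile normalization and by -1.16 under ribosomal protein centering, and TSPAN13 by 0.72 and 0.89 in the same order. TSPAN6 passed 1.4-fold under ribosomal protein centering (0.58). On that scale 2 tetraspanins were higher instead of 1, and at 2-fold 0 were higher and 1 lower. The partner and comparison lists together had 4 genes lower and 2 higher, but 1 lower and 5 higher under ribosomal protein centering. The tetraspanin median ranged from 0.02 to 0.15. Over all genes, the share of lower genes among those past 1.4-fold was 42.3%, or 17.4% under ribosomal protein centering. With quantile normalization it was 50.8%, which shows nothing about the data. Quantile normalization of 2 columns that mirror each other makes the differences over all probe sets symmetric around 0. GATA6 differed by -1.29 with quantile normalization and by -1.02 under ribosomal protein centering.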

Other observations

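Families that share the membrane topology of the tetraspanins but not their sequence were looked at beside them. In the L6 family 1 of 6 named genes passed 1.4-fold, beside 6.17% of all genes, and nothing is read from so few. TM4SF4, an L6 protein of liver, pancreas and intestine, had a value of -0.60 in the GATA6 siRNA array and 0.60 in the control siRNA array (difference -1.19, 2.28-fold lower). TM4SF1, a tumor antigen, differed by 0.30, TM4SF19 by -0.08 and TM4SF5 by -0.05. In the family of epithelial membrane proteins, EMP3 differed by 0.37 (0.50 under ribosomal protein centering), EMP1 by -0.24 and EMP2 by 0.05, and 0 of 3 passed. The MS4A list had 0 of 15 genes named.

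The antisense gene UPK1A-AS1, chosen after its value was seen, differed by -0.12, and the sense gene UPK1A by 0.30.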
